A study of Mus musculus with 4 samples.

Results

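The Ly6 and Psca family genes were followed in embryoid bodies of ES-E14TG2a, a line of mouse embryonic stem cells, treated with all-trans retinoic acid (ATRA) to direct them to neurons. The 9 genes are Psca, Slurp1, Ly6d, Ly6k, Ly6e, Ly6a, Ly6c1, Ly6h and Gpihbp1, of 9997 symbols in the table used here. They are Ly6 superfamily genes of 1 cluster on chromosome 15, of which others, such as Lypd2, Lynx1 and Ly6c2, are not among the 9. They were chosen by family and by position, with their values in these libraries already known. The counts and differences below therefore describe the libraries and carry no test. Each of the 4 libraries was the single one of its group: a control without a stated day, and ATRA groups named for 0, 6 and 10 days. Per the labels' protocols, the ATRA dose was 5 µM, given on culture days 4 and 6. The aggregates were put on dishes coated with polyornithine and laminin after 8 days. The design text names 4 days of ATRA. The ATRA entries are the same for every ATRA group, that of 0 days included. From which point the 0, 6 and 10 days are counted is not stated. The labels give neither the culture day of the control nor the dish of each library, so treatment, culture age and culture format cannot be told apart. No difference therefore has a replicate check.

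Ly6 proteins are small cell-surface or secreted proteins built on a three-finger fold that disulfide bonds hold together. Most are tied to the membrane by a glycosylphosphatidylinositol (GPI) anchor. In the mouse many of them are known as markers of blood cells and of epithelia. Several bind nicotinic acetylcholine receptors, and several are induced by interferon.

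The feature that marks the family can be read in the coding sequence, and it is shown here because it is what the 9 genes share beside their position. Each was searched, in frame, for a pair of cysteine codons (TGT or TGC), then 3 to 7 codons, then a cysteine codon and an asparagine codon (AAT or AAC). All 9 coding sequences held it once, each time with 4 codons between. The neighbours Ly6c2 and Ly6i, not among the 9, held it too, with the same bases as Ly6c1 and Ly6a. Of 21875 protein-coding genes, 104 (0.475%) held the pattern. The stretches, from GENCODE M21 transcripts with mm10 positions, are each within 1 coding exon, and capitals mark the cysteine and asparagine codons.
Psca: TGCTGCtactctgacctgTGCAAT (chr15:74716481-74716504, plus strand)
Slurp1: TGTTGCttccgtgacctcTGCAAC (chr15:74726841-74726864, minus strand)
Ly6d: TGCTGCcagactgacctaTGCAAC (chr15:74762461-74762484, minus strand)
Ly6k: TGCTGTcaatgggactcaTGTAAT (chr15:74797105-74797128, minus strand)
Ly6e: TGCTGCcaaagctccttcTGCAAC (chr15:74958594-74958617, plus strand)
Ly6a: TGTTGCcaggaagacctcTGCAAT (chr15:74995352-74995375, minus strand)
Ly6c1: TGTTGCagcgaagacctcTGCAAT (chr15:75045492-75045515, minus strand)
Ly6h: TGCTGCgagaaagatttgTGCAAC (chr15:75565196-75565219, minus strand)
Gpihbp1: TGTTGCcagtccacactgTGCAAT (chr15:75597822-75597845, plus strand)

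The coding sequences held between 10 (Slurp1 and Ly6e) and 12 (Ly6a, Ly6c1 and Ly6h) cysteine codons in all. Over the 36 pairs, identity in aligned coding bases ran from 58.4% to 83.7% with a median of 63.7%. Ly6a and Ly6c1 were the closest pair of the 9, with 64 differing bases in 393. Closer still was Ly6c2, a neighbour that is not among the 9: it differed from Ly6c1 at 9 of 393 coding bases (97.7% identity). The 60 bases in which the 2 differ most, coding bases 6 to 65, are shown because here fragments of one gene differ most from those of the other. Capitals mark the 6 bases that differ.
Ly6c1: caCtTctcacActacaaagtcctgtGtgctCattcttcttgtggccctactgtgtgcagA (chr15:75048447-75048506, minus strand)
Ly6c2: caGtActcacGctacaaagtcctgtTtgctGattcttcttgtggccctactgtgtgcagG (chr15:75111603-75111662, minus strand)

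Of the 795 stretches of 50 bases in the Ly6c1 transcript, 292 (36.7%) also stood in transcripts of another gene, 252 of them in Ly6c2. For Ly6a the share was 10.0%, and for Psca, Ly6d, Ly6e, Ly6h and Gpihbp1 none of the stretches was shared. Ly6c2 itself was listed at 0 in the control and at 0 and 6 days, and at 0.0628 FPKM at 10 days. The sources used here do not say how shared reads were divided, and the Ly6c1 level is uncertain to that extent. Ly6k lies wholly inside Gm17189, a gene on the other strand that was not analysed here, and 29.2% of its stretches lie in Gm17189 transcripts. Slurp1 overlaps Them6, also on the other strand, by 322 bases. The sources do not say whether reads were counted by strand.

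Levels are FPKM, fragments divided by transcript length and by library total, a scale on which genes can be set side by side. Depth was estimated from the FPKM worth of 1 fragment, at 24500000 fragments in the control and 26400000, 25200000 and 27300000 at 0, 6 and 10 days. Only values of FPKM times kb between 0.02 and 0.05 were read as 1 fragment, which limits in advance the depths that could come out. Ranges in parentheses are 95% Poisson intervals for the fragments this gives on a gene's shortest coding transcript, and they cover counting error only. Neither the error of the depth estimate nor the choice of transcript is in them. Differences between libraries were taken as log2(FPKM + 1), so changes of low genes come out too small. A gene is called higher or lower past 2-fold on that scale. Ratios of FPKM given beside a log2 difference are taken without the added 1 and are larger. Compared were the 5885 symbols that reached 1 FPKM in any library, nearly all from chromosomes 1 and 10 to 18. Of the 9 genes 7 passed this filter. Ly6d passed it through the 10-day library alone and Ly6h through the 6- and 10-day libraries, so they had to differ between libraries.

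The summed level of the 9 genes was 130.0 FPKM in control embryoid bodies, 46.5 FPKM at 0 days, 70.1 FPKM at 6 days and 249 FPKM at 10 days. Ly6e held most of it in 3 of the 4 libraries, with 64.9% in the control, 66.3% at 0 days and 54.7% at 6 days. At 10 days Psca held 60.8% and Ly6e 23.0%. The genes fell into 4 descriptions. Ly6e, Ly6a and Ly6c1 were highest in the control and lowest at 0 days. Psca, Ly6h and Ly6d were highest at 10 days, and Ly6k at 0 days. Slurp1 and Gpihbp1 stood at 0.292 FPKM or less throughout.

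**Figure D1:**
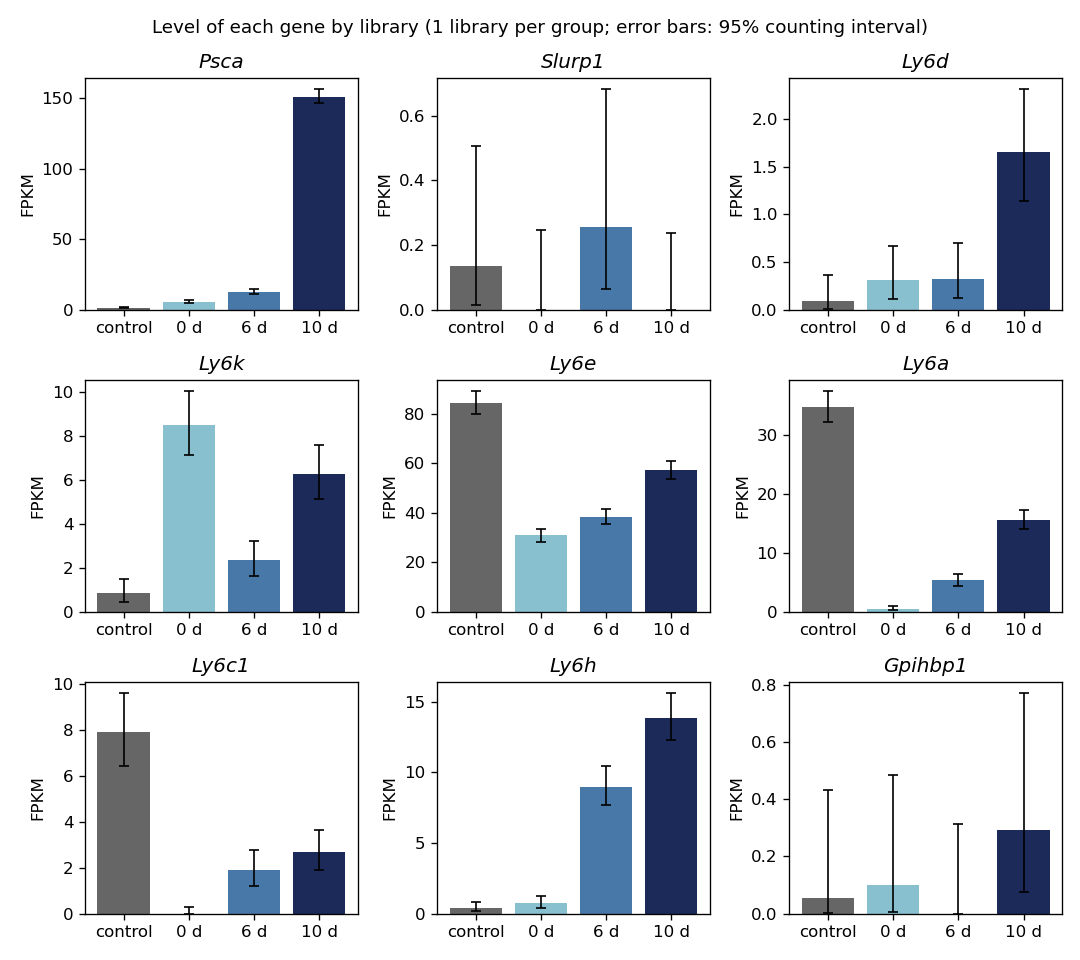
Level of each of the 9 genes in FPKM (vertical axis, linear, a scale of its own for each gene) in the 4 libraries (horizontal axis), with 95% counting intervals as bars. Psca stands at 151 FPKM at 10 days against 1.43 to 12.7 FPKM in the others, while Ly6e, Ly6a and Ly6c1 are highest in the control.

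**Figure D2:**
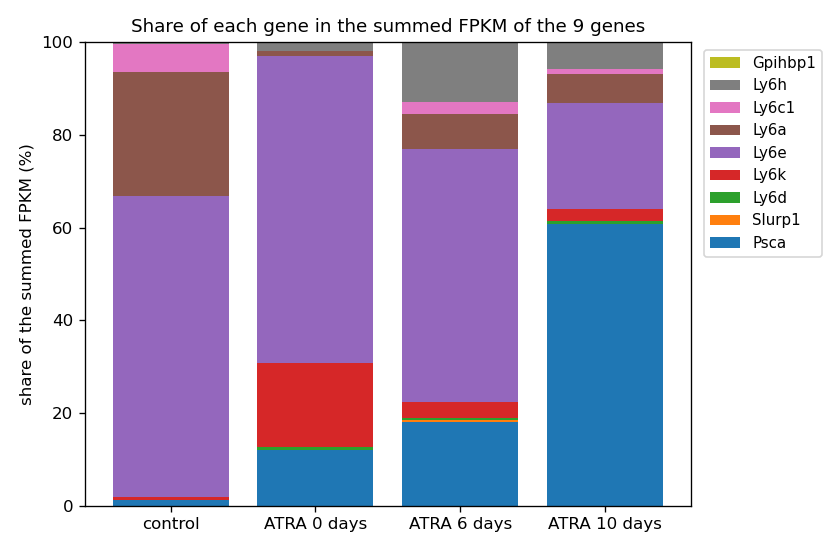
Share of each gene (colours) in the summed FPKM of the 9 genes (vertical axis, percent) by library (horizontal axis). Ly6e takes the largest share in the control and at 0 and 6 days, and Psca, with 60.8%, at 10 days.

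Ly6a encodes Sca-1, the surface antigen used to sort mouse haematopoietic stem cells (ENSMUSG00000075602.10, mm10 chromosome 15, 74994877 to 74998031, minus strand). It stood at 34.7 FPKM (32.2 to 37.4) in the control, 0.501 FPKM (0.249 to 0.901) at 0 days, 5.28 FPKM (4.34 to 6.37) at 6 days and 15.6 FPKM (14.0 to 17.3) at 10 days. No pair of these intervals overlapped. The control FPKM was 69.3 times that at 0 days. On log2(FPKM + 1) the difference of 0 days from the control was -4.57, lower than in all but 0.357% of the compared symbols. From 0 to 6 days the log2 difference was 2.07 and from 6 to 10 days 1.40. At 10 days the level was still 2.23 times lower than in the control (log2 difference -1.11), a call that median-ratio scaling ended at -0.93.

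Ly6c1 encodes the Ly-6C antigen of monocytes and some endothelial cells (75044018 to 75048830, minus strand). Its level was 7.91 FPKM (6.44 to 9.61) in the control. It was listed at 0 at 0 days, where 3 fragments would give 0.218 FPKM. At 6 days it stood at 1.89 FPKM (1.22 to 2.80) and at 10 days at 2.67 FPKM (1.89 to 3.66). The control was above all ATRA libraries, and the intervals at 6 and 10 days overlapped. The log2 difference from the control was -3.16 at 0 days, where the lower library is listed at 0, -1.62 at 6 days and -1.28 at 10 days.

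Ly6e encodes a widely expressed family member, known as an interferon-induced gene and as the receptor for the placental fusion protein syncytin-A in the mouse. Its human counterpart was first described as a gene induced by retinoic acid in leukaemia cells. The gene (74955051 to 74959905, plus strand) had the highest level of the 9 in every library but the last. It stood at 84.4 FPKM (79.9 to 89.0) in the control and at 30.8 FPKM (28.3 to 33.6) at 0 days, 2.74 times lower. At 6 days it was at 38.3 FPKM (35.4 to 41.4) and at 10 days at 57.2 FPKM (53.7 to 60.8). The order was the same as for Ly6a over a smaller range, and no intervals overlapped. The log2 difference was -1.42 between 0 days and control, and 0.31 and 0.57 over the next steps, both short of 2-fold. Against the control it was -1.12 at 6 days and -0.55 at 10 days. The call at 6 days was lost with median-ratio scaling (-0.94) and upper-quartile scaling (-0.89).

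Ly6e, Ly6a and Ly6c1 follow each other on the chromosome, with Ly6i between the first 2. Ly6i, whose coding sequence was 86.3% identical to that of Ly6a, was listed at 0 in 3 libraries and stood at 0.0540 FPKM at 10 days. Markers of pluripotent cells were also lower at the first step: all 9 in the table, of 21 listed, beside 12.8% of all compared symbols. They summed to 1953 FPKM in the control, 153 FPKM at 0 days, 252 FPKM at 6 days and 219 FPKM at 10 days. The 6 markers of blood in the table, of 15 listed, summed to 0.909, 1.79, 4.63 and 16.3 FPKM in the same order. Hba-x made up 6.99 FPKM and Csf1r 4.15 FPKM of the sum at 10 days. Ptprc, the pan-leukocyte antigen CD45, stood at 0.0332 FPKM or less in all 4 libraries, and Hba-a1 and Hba-x, which encode globins, were listed at 0 in the control and at 0 days. The part of pluripotent cells or of blood cells in the levels of the 3 genes was not tested. In bulk samples fewer cells of a type and less RNA per cell cannot be told apart.

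Of the 9 genes, Ly6c1 alone matched a promoter window in the RefSeq table (GRCm38.p6, the mm10 assembly), with 2 windows. The window below, chr15:75048788-75049087 on the minus strand, runs from 250 bases before a transcript start to 50 after it. It is shown because, of the 2, it alone held matches of the motifs searched. Ly6c1 and Slurp1 were the genes listed at 0 at 0 days.
Ly6c1: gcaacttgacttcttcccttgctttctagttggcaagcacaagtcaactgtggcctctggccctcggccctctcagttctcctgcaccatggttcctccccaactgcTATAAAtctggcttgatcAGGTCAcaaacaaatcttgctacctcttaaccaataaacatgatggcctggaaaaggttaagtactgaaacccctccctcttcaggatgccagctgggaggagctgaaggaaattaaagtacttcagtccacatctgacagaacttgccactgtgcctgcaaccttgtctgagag
Capitals mark TATAAA, which starts 143 bases before the start, and the retinoid receptor half-site AGGTCA, 125 bases before it. Both strands were searched, and the matches do not overlap. Of 32851 windows of the same length, 13.6% held TATAAA and 16.3% held AGGTCA. The interferon-related motifs TTCNNNGAA, called GAS (in 8.30% of all windows), and ISRE, the interferon-stimulated response element (in 3.44%), had no match in this window. The other window of Ly6c1, chr15:75048614-75048913, had no match of any of these motifs.

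Psca encodes prostate stem cell antigen, a surface protein of several epithelia such as stomach, bladder and prostate (ENSMUSG00000022598.6, 74714839 to 74717069, plus strand). Its level was 1.43 FPKM (0.962 to 2.03) in the control, 5.57 FPKM (4.64 to 6.64) at 0 days, 12.7 FPKM (11.3 to 14.3) at 6 days and 151 FPKM (146 to 156) at 10 days. Each library was above the one before it, with no overlap of the intervals. The FPKM ratio of 10 to 6 days was 11.9, and the log2 difference of 3.47 was larger than in 99.7% of the compared symbols. The log2 differences of the earlier steps were 1.44 and 1.06. In rank from the top of the 9997 symbols, Psca was 4770th in the control and 319th at 10 days.

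Ly6h, a family member of the brain that is known to affect nicotinic receptors, lies at the other end of the cluster (75551268 to 75567255, minus strand). It stood at 0.413 FPKM (0.174 to 0.827) in the control and 0.725 FPKM (0.400 to 1.21) at 0 days, where the intervals overlapped. It was at 8.99 FPKM (7.69 to 10.4) at 6 days and 13.9 FPKM (12.3 to 15.6) at 10 days. The FPKM ratio of 6 to 0 days was 12.4 (log2 difference 2.53, larger than in 98.9% of the compared symbols), and from 6 to 10 days the log2 difference was 0.58.

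Ly6d, a marker of early B-lineage cells and of keratinocytes (74762056 to 74763620, minus strand), was low throughout. It was at 0.0864 FPKM (0.00687 to 0.359) in the control, 0.311 FPKM (0.115 to 0.673) at 0 days, 0.324 FPKM (0.120 to 0.701) at 6 days and 1.65 FPKM (1.14 to 2.31) at 10 days. These levels come to about 2, 6, 6 and 34 fragments. The first 3 intervals overlapped one another and the last stood above them. The log2 difference of 10 against 6 days was 1.00, at the threshold itself, and 0.95 with upper-quartile scaling.

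Markers of other cell types moved over the same libraries. The 7 markers of simple epithelium in the table summed to 204 FPKM in the control, 374 FPKM at 0 days, 2408 FPKM at 6 days and 4054 FPKM at 10 days. All 7 were higher at 6 than at 0 days, beside 8.22% of all compared symbols. The 12 markers of stratified epithelium summed to 53.4, 4.93, 35.1 and 47.8 FPKM in the same order, with Dsg1a listed at 0 in the control and at 6 days. Krt17 alone made up 45.3 FPKM of the control sum, and without it, left out after its values were seen, the sums were 8.11, 4.46, 29.7 and 43.1 FPKM. Of the 8 compared, 4 were higher and 2 lower at 10 days than in the control, beside 19.6% and 17.1% of all compared symbols. Krt15, a basal keratin, stood at 0.0912, 0.398, 14.1 and 20.0 FPKM. Krt13 stood at 4.05, 0.0230, 0.222 and 1.35 FPKM, and Krt10 between 3.17 and 3.74 FPKM. Trophoblast markers, 7 in the table, summed to 0.381, 0.123, 49.3 and 84.5 FPKM, with 6 of the 7 listed at 0 at 0 days and Synb, which encodes syncytin-B, at 0 in all 4 libraries. The 7 neuronal markers in the table, of 20 listed, summed to 7.85, 14.0, 71.5 and 35.9 FPKM. Nefl made up 39.6 and 21.8 FPKM of the sums at 6 and 10 days. Nefm, Syt1 and Rbfox3 stayed below 1 FPKM in every library. The part of these cell types in the levels of Psca, Ly6h and Ly6d was not tested.

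Ly6k encodes a germ-cell protein needed for sperm function in the mouse (74796874 to 74799986, minus strand). It stood at 0.856 FPKM (0.454 to 1.47) in the control, 8.47 FPKM (7.11 to 10.0) at 0 days, 2.33 FPKM (1.63 to 3.23) at 6 days and 6.27 FPKM (5.13 to 7.60) at 10 days. The level was high at 0 and 10 days, whose intervals overlapped, and low in the control and at 6 days, whose intervals did not. The FPKM ratio of 0 days to control was 9.89 (log2 difference 2.35), and the log2 differences of the next steps were -1.51 and 1.13. Ly6k was the only one of the 7 compared genes called lower at 6 than at 0 days.

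Slurp1 and Gpihbp1 were close to the limit of detection when fragments were taken on their shortest coding transcripts. Slurp1, a secreted family member of skin that acts on nicotinic receptors, was listed at 0 at 0 and 10 days and stood at 0.136 FPKM in control and 0.256 FPKM in 6-day embryoid bodies. On its shortest coding transcript (567 nt) these come to about 2 and 4 fragments. Its longest has 2859 nt and would give more. Gpihbp1 encodes the protein that carries lipoprotein lipase across capillary endothelium. It had 0.0561 FPKM in the control, 0.101 FPKM at 0 days and 0.292 FPKM at 10 days, and was listed at 0 at 6 days. On its shortest coding transcript (466 nt) the levels above 0 come to about 1, 1 and 4 fragments. A level resting on 3 fragments would be 0.236 to 0.263 FPKM on that transcript, and the counting intervals of all 4 libraries overlapped there. The longest coding transcript of Gpihbp1 has 1652 nt. It would give more fragments and narrower intervals, for which overlap was not checked. The 4 endothelial markers in the table summed to 23.0 FPKM in the control, 4.63 FPKM at 0 days, 44.5 FPKM at 6 days and 47.5 FPKM at 10 days, and single genes carried these sums. Pecam1, the antigen CD31 that mouse embryonic stem cells also carry, made up 21.1 FPKM of the control sum and stood at 1.37, 4.15 and 2.05 FPKM afterwards. Sox17, which is also an endoderm factor, made up 39.6 and 43.5 FPKM at 6 and 10 days. Cldn5 stood between 0.162 and 1.88 FPKM and Erg between 0.0196 and 0.490 FPKM, both lowest in the control. The part of endothelial cells in the Gpihbp1 and Ly6c1 levels was not tested. Of the genes that handle lipoprotein lipase, Lmf1, which helps it fold, stood at 5.32, 10.6, 9.94 and 14.0 FPKM, and Sel1l at 6.74, 10.9, 11.02 and 14.7 FPKM, in the order control, 0, 6 and 10 days. Angptl4, which inhibits the lipase, stood at 11.2, 8.84, 4.71 and 3.44 FPKM in that order.

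Counted over the successive steps, with no test, 2 of the 7 compared genes were higher at 0 days than in the control (Psca and Ly6k) and 3 lower (Ly6e, Ly6a and Ly6c1). Of all compared symbols 12.2% were higher and 12.8% lower at that step. From 0 to 6 days 4 were higher (Psca, Ly6a, Ly6c1 and Ly6h) and 1 lower, beside 8.22% and 4.88% of all symbols. From 6 to 10 days 4 were higher (Psca, Ly6d, Ly6k and Ly6a) and none lower, beside 3.7% and 0.85%. The median difference of the 7 genes was 0.27, 1.06 and 1.00 over the 3 steps, and that of all compared symbols -0.04, 0.01 and 0.02. The comparisons with the control share that library. At 6 days 2 genes were higher and 3 lower than in the control, beside 15.3% and 12.5% of all symbols. At 10 days 4 were higher and 2 lower, beside 19.6% and 17.1%. Since the genes were chosen with their values in these libraries already known, nothing is read from these counts.

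**Figure D3:**
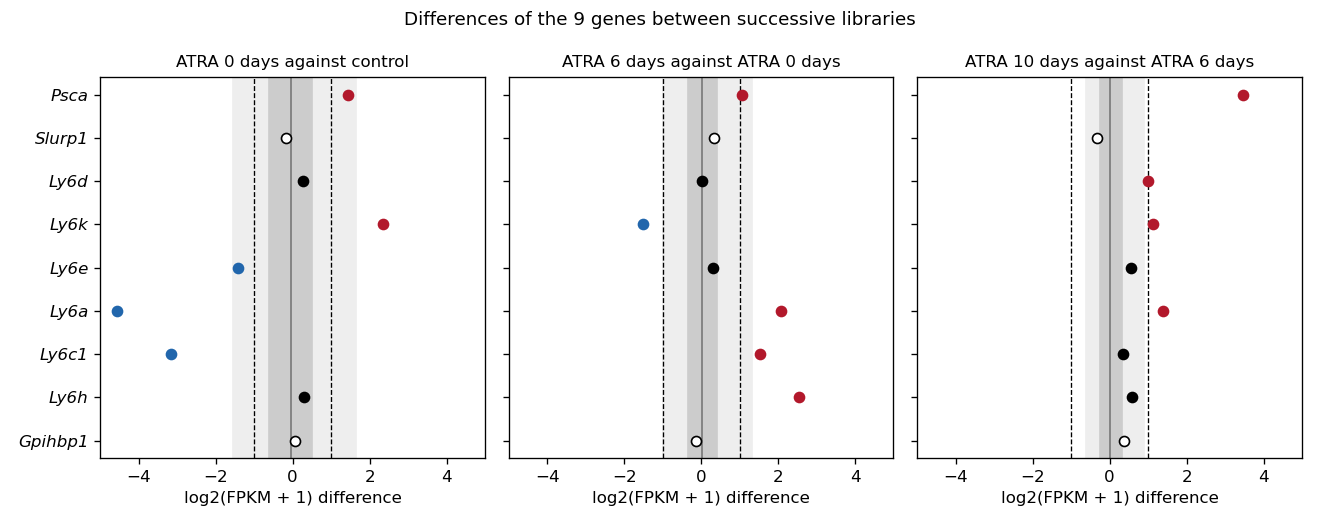
Difference in log2(FPKM + 1) of each gene (rows, in chromosomal order) between successive libraries, with red points past 2-fold higher, blue points past 2-fold lower and open points for the 2 genes below the filter. Dark and light grey cover the middle 50% and 90% of the compared symbols, the grey line is their median and dashed lines mark 2-fold. Ly6a at -4.57 lies farthest left at the first step and Psca at 3.47 farthest right at the third.

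Along the chromosome the cluster ran from Psca to Gpihbp1 over 885 kb and held 25 protein-coding genes, of which 21 were in the table and 10 reached 1 FPKM. Of the 12 in the table that are not among the 9 genes, 3 reached it. Them6, between Psca and Slurp1, stood at 19.1, 6.79, 4.94 and 10.0 FPKM in the control and at 0, 6 and 10 days. Lypd2, a family member next to Slurp1, stood at 0.292 FPKM in the control, was listed at 0 at 0 days, and was at 3.45 and 7.25 FPKM at 6 and 10 days. Lynx1, a brain member that damps nicotinic receptors, was highest at 0 days with 1.19 FPKM. Gml, Gml2 and Cyp11b2, in the middle of the cluster, were listed at 0 in every library. Ly6k, highest at 0 days, and Ly6e, lowest there, are the members on either side of that stretch.

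**Figure D4:**
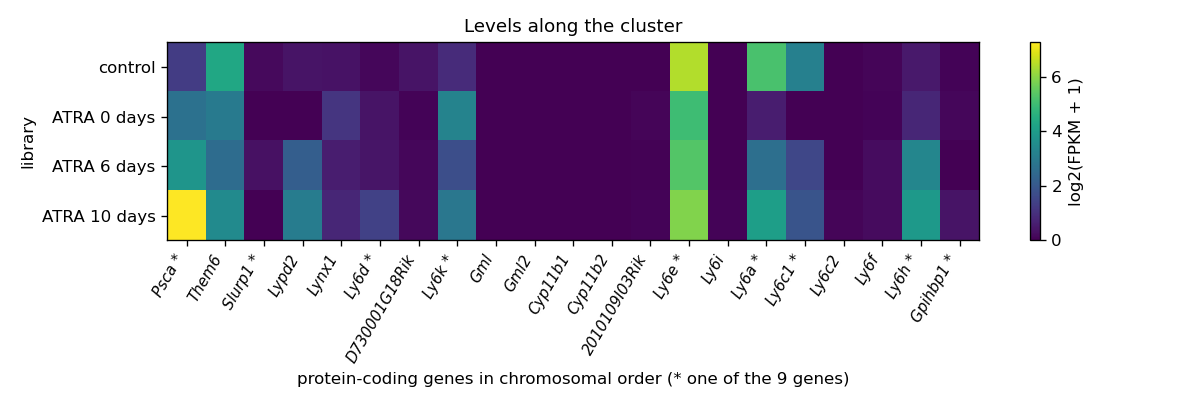
Level in log2(FPKM + 1) (colour) of the 21 protein-coding genes of the cluster in the table, in chromosomal order (horizontal axis, the 9 genes starred), in the 4 libraries (vertical axis). Psca is highest at 10 days, and Ly6e, Ly6a and Ly6c1 in the control, where Ly6i, between Ly6e and Ly6a, is at 0. Levels are at or near 0 from Gml to Cyp11b2.

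Of the genes flanking the cluster or lying between its members, 25 of the 28 in the table were compared. At 0 days against control 1 was higher and 4 lower (median -0.37), from 0 to 6 days 2 and 1 (median -0.01), and from 6 to 10 days 2 and 0 (median 0.21). Over all compared symbols the shares higher and lower were 12.2% and 12.8%, 8.22% and 4.88%, and 3.7% and 0.85%. Arc, an immediate early gene of neurons, stood at 62.5 FPKM in control and 5.65, 1.91 and 2.18 FPKM at 0, 6 and 10 days. Over control, 0 and 6 days its order was opposite to that of Psca.

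Members of the wider LY6/uPAR family on other chromosomes were few in the table, 8 of the 24 listed, and 5 were compared. At 0 days 3 of the 5 were lower than in the control and none higher (median -1.25). Of all compared symbols 12.8% were lower and 12.2% higher at that step (median -0.04). Ly6g6e, on chromosome 17, stood at 12.6 FPKM in the control, 0.122 FPKM at 0 days, 4.67 FPKM at 6 days and 7.86 FPKM at 10 days. Its neighbour Ly6g6d stood at 7.77, 0.402, 0.724 and 1.42 FPKM. Lypd1, a brain member, was highest at 10 days, at 0.153, 0.717, 1.26 and 3.66 FPKM.

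Of 13 compared genes that build, attach or trim the GPI anchor, which most of the 9 proteins carry, none was higher and 1, Pigl, was lower at 0 days than in the control (15.1 and 5.35 FPKM), with a median difference of 0.20. From 0 to 6 days and from 6 to 10 days none of the 13 was past 2-fold, steps at which 8.22% and 3.7% of all compared symbols were higher and 4.88% and 0.85% lower. Against the control Pigp, a subunit of the enzyme of the first step, was higher at 6 days (28.7 and 68.1 FPKM, log2 difference 1.22) and 10 days (66.0 FPKM, 1.17), beside 15.3% and 19.6% of all compared symbols. Pigl was lower than in the control at 6 days (3.94 FPKM, -1.70) and 10 days (2.78 FPKM, -2.09), beside 12.5% and 17.1%.

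Interferon is known to induce Ly6a, Ly6c1 and Ly6e, which were lower at 0 days than in the control. Of 22 compared genes of interferon signalling and response 12 were higher at that step and 2 lower (median 1.23), beside 12.2% and 12.8% of all compared symbols (median -0.04). Among the higher ones, Psmb8, an immunoproteasome subunit, had 0.0337 FPKM in control and 10.6 FPKM in 0-day embryoid bodies, Ifi27 was listed at 0 in the control and stood at 12.7 FPKM at 0 days, and Tap2, a peptide transporter, stood at 0.450 and 9.20 FPKM. Xaf1 (23.8 and 4.06 FPKM) and Dhx58 (66.3 and 29.1 FPKM) were the 2 lower ones, Dhx58 being named after its values were seen. From 0 to 6 days 1 was higher and 6 lower (median -0.44), beside 8.22% and 4.88% of all symbols. From 6 to 10 days 4 were higher and none lower (median 0.49), beside 3.7% and 0.85%. The part of interferon signalling in the Ly6 levels was not tested. Of the genes listed for the retinoic acid response, 5 were compared, mostly receptors. Of these, 2 were higher at 0 days than in the control and 3 lower at 6 than at 0 days, beside 12.2% and 4.88% of all symbols. Rarb, a receptor and direct target, stood at 0.630 FPKM in control and 16.9, 3.97 and 2.92 FPKM at 0, 6 and 10 days. Ly6k was the only compared gene of the 9 with the same order at the first 2 steps, higher and then lower. From 6 to 10 days Ly6k was higher (log2 difference 1.13), while Rarb was not past 2-fold (-0.34). The part of retinoic acid in the Ly6 levels was not tested.

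The genes most like each of the 6 that reached 5 FPKM were found by the Euclidean distance between mean-centred log2(FPKM + 1) values over the 4 libraries, among 4250 other symbols at 5 FPKM or more in any library that are neither small RNAs nor predicted genes. With 4 libraries this is a description of order and range. Ly6e had the closest neighbours, Bysl (distance 0.17), Hmha1 (0.17) and Rdm1 (0.18). Next to Ly6h stood Adora1 (0.22), Bace2 (0.24) and Scel (0.26). Ly6c1 was nearest to Sox15 (0.31), Tst (0.48) and Dmtn (0.48). Beside Ly6k stood C1ql4 (0.36), Tap2 (0.37) and H2-Ab1 (0.50). For Ly6a the nearest was Ly6g6e (0.95), then Wnt6 (1.00) and Gpx2 (1.02). For Psca it was the chemokine gene Ccl20 (1.07), then the prolactin-family gene Prl8a9 (1.14) and the kininogen gene Kng1 (1.18). Ccl20 stood at 0.199, 0.243, 4.56 and 62.1 FPKM, and Kng1 at 0.0437, 2.34, 14.8 and 64.9 FPKM. The distances of Psca and Ly6a to their nearest genes were larger than those of the other 4. Values were not scaled to a gene's range, so genes of wide range can have larger distances. Psca (5.97) and Ly6a (4.57) had the widest ranges of log2(FPKM + 1) among the 6, and Ly6e (1.42) the narrowest. Bysl and Rdm1 lie on chromosomes 17 and 11, away from Ly6e.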

How the data were processed

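RNA was measured in 4 libraries, 1 per group. The deposited values are FPKM, per the file headers, 1 column per library. The submitters' processing notes name Trimmomatic, TopHat, Cufflinks and mm10 but no versions. Annotation, strand use and filters: not given in the sources used here. Rows of a repeated symbol were summed (10201 rows, 9997 symbols). Genes outside chromosomes 1 and 10 to 18 were not analysed here, apart from 10 symbols.

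Symbols reaching 1 FPKM in any library were compared on log2(FPKM + 1), with a 2-fold threshold and no test. Depth came from single-transcript genes of at least 800 nt, where the median FPKM times kb between 0.02 and 0.05 was read as 1 fragment. Positions, lengths and coding sequences came from GENCODE M21, and promoters from RefSeq. The fold calculation was tested on simulated data with counting error only, which says nothing of variation between samples. The 9 genes and the 14 gene lists were chosen with earlier results of these data known. Genes named were the 9, up to 6 of a list by range, and the 3 nearest to each gene at 5 FPKM or more. Cluster neighbours, Arc, Pigl, Pigp, Rarb and cell type markers were named after their values were seen. Alternatives were pseudocounts of 0.1 and 0.5, filtering at 5 FPKM or not at all, scaling by median ratio or upper quartile, a 4-fold threshold and taking the highest row of a symbol. Software was Biopython 1.88, matplotlib 3.10.9, scipy 1.17.1, pandas 2.3.3 and numpy 2.4.6 under Python 3.11.15.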

Additional observations from a re-analysis of the deposited data

How the results depend on the processing

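The 45 differences of the 9 genes (5 comparisons each) were recomputed under 8 alternatives. None changed direction, but only median-ratio and upper-quartile scaling could have changed one. A pseudocount keeps the sign of a difference, and the filters and the 4-fold threshold leave its value as it is. Taking the highest row could change nothing, since each of the 9 genes has 1 row. Of the 360 values 20 lost a call, 4 gained one and 336 kept their call or lack of one. The 336 hold all 45 values of the highest-row setting, which were fixed in advance. The 336 include Slurp1 and Gpihbp1, which are below the filter and get no call, though a pseudocount of 0.1 put 7 of their differences past 2-fold, at sizes up to 1.97. With the 4-fold threshold the genes called numbered 3 in place of 5 at 0 days against control, 2 in place of 5 at 6 against 0 days, 1 in place of 4 at 10 against 6 days, 3 in place of 5 at 6 days against control and 2 in place of 6 at 10 days against control. Over all symbols it gave 192 higher and 153 lower, 133 and 47, 29 and 7, 315 and 146, and 469 and 189, against 720 and 752, 484 and 287, 218 and 50, 903 and 734, and 1156 and 1005, in the same order. A pseudocount of 0.1 brought Ly6d past 2-fold at 0 days (1.14) and 6 days (1.18) against control, and Ly6k at 6 days against control (1.35, and 1.06 with a pseudocount of 0.5). The filter at 5 FPKM took Ly6d out.

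Scaling moved all genes together. For 0 days against control, 48.9% of called symbols were higher as deposited, 60.6% with median-ratio and 65.6% with upper-quartile scaling, with lower calls at 752, 558 and 497, and the median of all symbols shifted from -0.04 to 0.15 with the last. Against control at 6 days the shares were 55.2%, 64.6% and 67.6%, and at 10 days 53.5%, 63.2% and 58.8%. From 6 to 10 days upper-quartile scaling gave 67.5% in place of 81.3%. Lower calls of that step numbered 50 as deposited, 76 with upper-quartile scaling, and 185 and 98 with pseudocounts of 0.1 and 0.5. A pseudocount of 0.1 gave 363 higher calls there against 218, 1111 against 720 at 0 days against control, and 473 lower against 287 at 6 against 0 days. No paired analysis was possible because each group has 1 library.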
